A study of Mus musculus with 8 samples.

Results

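Bin1, Picalm, Cd2ap, Sorl1, Rin3, Ptk2b, Fermt2, Cass4, Epha1 and Zcwpw1 are the mouse counterparts of genes that lie at loci associated with late-onset Alzheimer disease in people, and most of them act in endocytosis, endosomal sorting or cell adhesion. These 10 genes were taken by name from the 21887 protein-coding genes of the RefSeq table for the mouse genome build GRCm38.p6. No measured value entered the rule, but earlier results of these data were known when the genes were chosen. For each gene, the window was its annotated span with 2 kb added on both sides, and every peak of histone H4 lysine 12 lactylation (H4K12la) that overlapped the window by 1 base or more was collected from each library. A peak was called gene-end when it lay within 2 kb of an annotated end of the gene, inside or outside it, and intragenic when it lay in the rest of the span. All 10 genes had a peak, and a gene-end peak, in at least 1 library; 34% of all protein-coding genes had no peak and 41.1% no gene-end peak in any.

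The study profiled H4K12la by CUT&Tag, an assay in which an antibody tethers a transposase to marked chromatin so that the DNA beside the mark is cut out and sequenced. There were 8 libraries in 4 groups of 2, which cross the cell preparation (total brain cells or microglia) with the genotype (wild type, WT, or 5XFAD). The 5XFAD line carries human amyloid precursor protein and presenilin transgenes with familial Alzheimer mutations, driven by the mouse Thy1 promoter, which is active mainly in neurons. All mice were perfused with saline, the brain without its cerebellum was dissociated, and myelin debris was taken away, so total cells and microglia share these steps. Microglia were then collected with beads against CD11b, a surface protein that other myeloid cells also carry. The labels give neither the age of the mice nor whether both libraries in a group stem from different mice, so p-values measure only the spread between these libraries, which may be technical.

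Endocytosis starts at the plasma membrane, where clathrin and its adaptors gather cargo and curved-membrane proteins shape the vesicle. The vesicle then fuses with early endosomes under the control of the small GTPase RAB5, and sorting receptors send cargo on to recycling or to lysosomes. Adhesion proteins link integrins and other surface receptors to kinases and the actin cytoskeleton, which in microglia serves migration, process movement and phagocytosis. Histone lactylation is an acyl mark whose donor is derived from lactate, and it is found mainly at active promoters and enhancers.

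The deposited lists held 22300 to 41783 peaks for microglia and 22543 to 32967 for total cells. Microglia peaks were wider, with a median width of 580 to 734 bp in the microglia lists against 287 to 366 bp in the total cell lists, and they covered 15.3 to 36.3 Mb against 7.78 to 14.8 Mb. Gene-end peaks marked 13 to 15 of 15 microglia marker genes in each microglia library, beside 33.3% to 49.0% of all protein-coding genes. In each total cell library they marked 2 to 6 of the 15, beside 34.2% to 41.8% of all genes. The 6 were in total cells 5XFAD 1, which also had the longest total cell list. The peaks of that library covered 6664 bp over these marker genes, against 1368 to 3545 bp in the other total cell libraries and 28020 to 62720 bp in microglia. Of 10 neuronal marker genes, 6 had no peak in any library, Snap25 among them, beside 34% of all protein-coding genes. Of 10 markers of other leukocytes, 6 had none, Ccr2 and Cd163 among them. More covered bases in every microglia library than in any total cell library were found for 13 of 15 microglia markers. The same rule was met by 18.5% of all protein-coding genes. Among other cell type markers, it was met by 2 of 10 neuronal (Rbfox3 and Camk2a) and 2 of 8 astrocyte ones (Slc1a3 and S100b). It was also met by 3 of 8 oligodendrocyte (Mbp, Mag and Cnp) and 3 of 8 vascular ones (Pecam1, Flt1 and Cdh5). Of 10 leukocyte markers 0 met it, although Mrc1 had a peak in all 4 microglia libraries. Over Mbp the means were 9598 bp (microglia) and 2208 bp (total cells), and the part of other cells in the results was not tested. The lists hold no read counts, so the depth of the libraries is unknown, and a list with more or wider peaks covers more bases over most genes.

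H4K12la peaks covered more of most of these genes in microglia than in total cells. Bin1, Picalm, Rin3, Ptk2b, Cass4 and Zcwpw1 had more covered bases in each of the 4 microglia libraries than in any of the 4 total cell libraries, which is 6 of 10 genes where 18.5% of all protein-coding genes met the same rule. Among genes with a span of at least 30 kb the share was 23.4%, and 6 of the 9 risk genes of that length met it. Fermt2 had the opposite order, with more covered bases in every total cell library, where 1.64% of all genes did so (3.78% of genes of at least 30 kb). Cd2ap, Sorl1 and Epha1 had ranges that overlapped between microglia and total cells. By role, the microglia order held for 3 of the 5 genes of endocytosis and sorting (Bin1, Picalm and Rin3) and for 2 of the 4 of adhesion and contact signalling (Ptk2b and Cass4). The mean was higher in microglia for 8 of the 10 genes, beside 77.3% of the 14445 genes with a peak anywhere. The median difference, microglia minus total cells, was 3295.75 bp over the 10 genes and 414.75 bp over those 14445 genes. These medians were not matched for length, and a longer window has more bases that peaks can cover. A span of 30 kb or more was found for 9 of the 10 genes and for 7506 of all 21887 protein-coding genes.

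A two-sided exact permutation test of the 8 libraries, 4 against 4, cannot give a p below 0.0286. It gives that p only where all values of one preparation lie above all of the other, so the p restates that order. With Benjamini-Hochberg adjustment over all 14445 genes, that smallest p became 0.0935, so 0 genes passed an adjusted 0.05 (0%) while 4412 genes (30.5%) had an unadjusted p under 0.05, among them 7 of these 10.

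**Figure D1:**
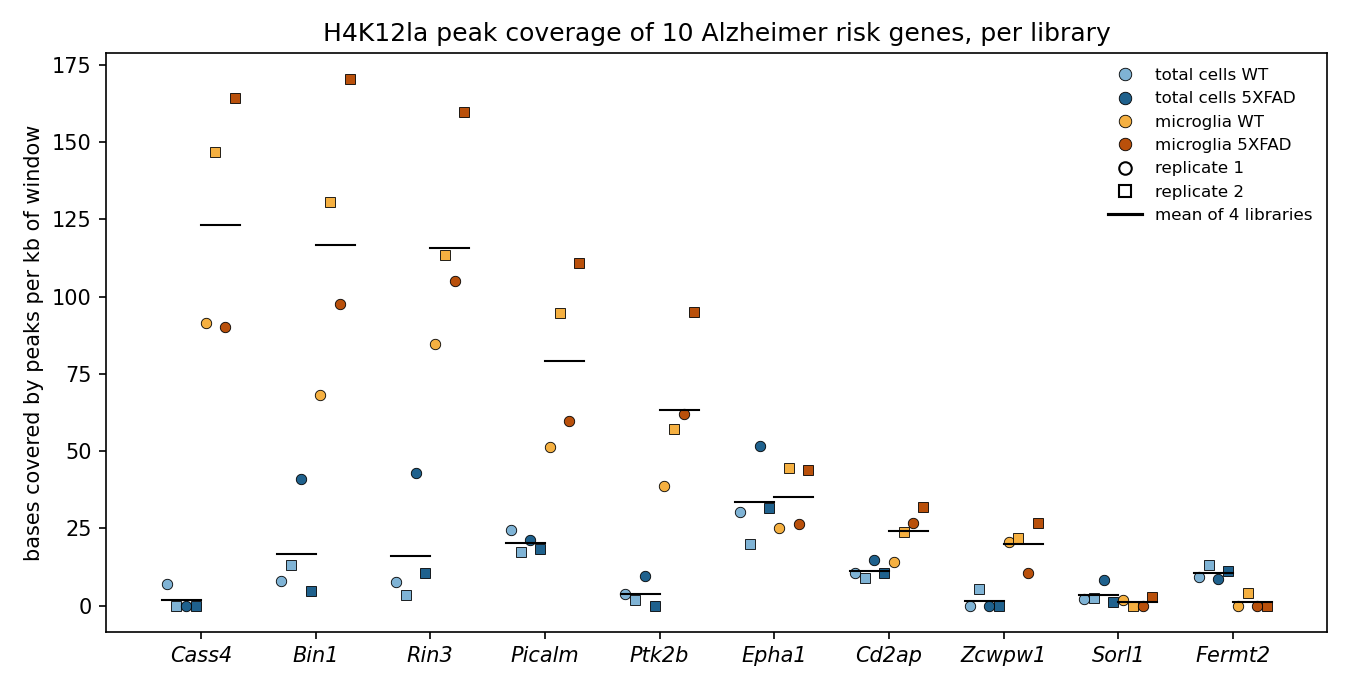
Bases covered by H4K12la peaks per kb of each gene's window on the vertical axis, with 1 point for each library and a line at the mean of the 4 libraries of each preparation; colours give the group and shapes the replicate number. The microglia points of Bin1, Picalm, Rin3, Ptk2b, Cass4 and Zcwpw1 all lie above the total cell points, those of Fermt2 lie below them, and those of Cd2ap, Sorl1 and Epha1 overlap with them.

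Promoter sequences are shown here because the peaks at the 5' ends of Picalm, Cass4 and Sorl1 lay over different parts of the promoter or in different preparations. RefSeq promoter entries, which run from 250 bases before to 50 bases after a start site, matched 8 of the 10 genes; Bin1 and Ptk2b were not matched, and their strand was not used. For Picalm the window was overlapped by a peak in 3 total cell libraries and 0 microglia libraries. For Cass4 it was overlapped in 4 microglia libraries and 0 total cell libraries, and for Sorl1 in 1 total cell library. For Rin3 it was overlapped in 1 total cell and 2 microglia libraries, all 3 of them 5XFAD. Both WT microglia libraries also had a peak at this end of Rin3, which ended at -161 and -134 bp, short of the window. Second entries of Sorl1 and Rin3 were overlapped in 0 libraries. The sequences below are the bases before the start that lie outside the annotated gene, read 5' to 3' on the gene's strand in GRCm38.p6. They are chr7:90129963-90130191 on the plus strand for Picalm, chr2:172393394-172393643 on the plus strand for Cass4 and chr9:42124298-42124547 on the minus strand for Sorl1. Capitals mark matches, on either strand, to GGGCGG (the GC box), CCAAT (the CCAAT box), GAGGAA (the core of sites for the myeloid factor PU.1), TGACTCA (the AP-1 site) and CACGTG (the E-box of factors such as TFEB), and no matches overlapped.
Picalm: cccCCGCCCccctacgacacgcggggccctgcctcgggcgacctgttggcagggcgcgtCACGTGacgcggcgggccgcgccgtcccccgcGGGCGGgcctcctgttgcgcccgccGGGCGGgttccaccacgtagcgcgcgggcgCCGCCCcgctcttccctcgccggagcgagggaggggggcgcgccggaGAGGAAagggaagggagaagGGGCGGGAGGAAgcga
Cass4: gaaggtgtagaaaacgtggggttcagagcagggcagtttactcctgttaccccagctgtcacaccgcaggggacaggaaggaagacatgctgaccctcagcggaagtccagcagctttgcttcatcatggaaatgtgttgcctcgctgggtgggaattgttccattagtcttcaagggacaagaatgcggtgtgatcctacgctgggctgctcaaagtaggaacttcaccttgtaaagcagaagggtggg
Sorl1: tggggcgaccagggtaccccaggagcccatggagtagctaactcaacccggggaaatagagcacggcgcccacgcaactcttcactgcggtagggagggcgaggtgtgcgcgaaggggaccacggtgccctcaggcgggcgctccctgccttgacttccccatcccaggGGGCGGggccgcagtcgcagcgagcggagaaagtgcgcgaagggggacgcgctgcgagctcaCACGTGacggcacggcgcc

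Counted over the full 250 bases before the start, Picalm held 39 CpG dinucleotides and 79.2% G or C, Sorl1 held 26 and 69.6%, and Cass4 held 6 and 52.8%; the median of all 32851 promoters was 6 CpG. Picalm had 6 matches to GGGCGG, 2 to GAGGAA and 1 to CACGTG, Sorl1 had 1 match each to GGGCGG and CACGTG, and Cass4 had none of the 5 motifs. Among the 32851 promoters of this length, 32.7% held GGGCGG, 33.8% CCAAT, 23.3% GAGGAA, 4.46% TGACTCA and 6.02% CACGTG. A match describes these letters only, and its absence says nothing about a factor.

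Bin1 encodes a BAR-domain protein of the amphiphysin family that bends membranes. The gene (ID 30948) lies at chr18:32376618-32435740. Its peaks covered 500 and 823 bp in the WT total cell libraries and 2596 and 304 bp in the 5XFAD total cell libraries. In microglia they covered 4301 and 8242 bp in WT and 6165 and 10750 bp in 5XFAD. The lowest microglia value was above the highest total cell value, and the means were 7364.5 ± 2772 bp and 1055.75 ± 1049 bp (SD, n = 4 each; exact permutation p = 0.0286, adjusted 0.0935). The ratio of these means was 6.98, beside a median ratio of 2.15 over the 11705 genes covered in both preparations.

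The peaks of all libraries over Bin1 merged into 18 regions, 15 of them intragenic. The widest of the regions found over any of the 10 genes, 2566 bp at chr18:32398387-32400952, lay inside Bin1, and its highest-ranking peak stood at the 80.0 to 91.1 percentile of score in the 4 microglia lists. Lower peaks in the same region stood at percentiles of 29.2 in microglia WT 1, 65.2 in WT 2 and 61.0 in 5XFAD 1. Percentiles given for a region are those of the highest-ranking peak of each library there. The same region had a peak in total cells WT 1 and 5XFAD 1, at percentiles of 49.9 and 46.4. At the lower-coordinate end of Bin1, chr18:32377071-32377531 had a peak in 3 total cell libraries, at percentiles of 60.6, 77.9 and 36.2, and in 0 microglia libraries. At the other end, chr18:32435914-32436600, just beyond the gene, had a peak in 3 microglia libraries and 0 total cell libraries.

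Picalm encodes a clathrin assembly protein that binds membrane lipid and sets vesicle size. The gene (ID 233489) lies at chr7:90130192-90209447 on the plus strand. Peaks covered 2047 and 1452 bp in WT total cells, 1773 and 1522 bp in 5XFAD total cells, 4279 and 7876 bp in WT microglia, and 4970 and 9239 bp in 5XFAD microglia. All 4 microglia values exceeded all total cell values, with means of 6591 ± 2355 and 1698.5 ± 270 bp (SD, n = 4 each; exact permutation p = 0.0286, adjusted 0.0935).

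At the 5' end of Picalm the 2 preparations had peaks at different places. In microglia, peaks ran from -904 to -311 bp in WT 1, -878 to -294 bp in WT 2, -904 to -294 bp in 5XFAD 1 and -975 to -301 bp in 5XFAD 2, counted from the outer 5' end with negative numbers upstream. In total cells, peaks lay at and just inside the gene, from -16 to 466 bp in WT 1 and from 46 to 245 bp in WT 2. Total cells 5XFAD 2 likewise had peaks from -16 to 162 bp and from 422 to 613 bp. Total cells 5XFAD 1 had 1 peak from 93 to 774 bp and a second upstream, from -878 to -674 bp, and microglia 5XFAD 2 had a second peak from 422 to 873 bp. The upstream region, chr7:90129217-90129898, thus had a peak in 4 microglia libraries and 1 total cell library, and the region at the start, chr7:90130176-90131065, in 1 microglia library and 4 total cell libraries. Of the sequence printed above, the stretch next to the gene was touched by peaks of total cells WT 1 and 5XFAD 2, and no microglia peak reached it.

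Inside Picalm, the region chr7:90166844-90168140 had a peak in every microglia and no total cell library. A region near the 3' end, chr7:90210977-90211429, had the same pattern, at a mean percentile of 26.6. The intragenic region chr7:90179452-90180472 had a peak in 7 libraries, at a mean percentile of 64.9 in microglia and 10.8 in total cells.

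Cd2ap encodes a scaffold that ties membrane receptors to actin and to the endocytic machinery. The gene (ID 12488) lies at chr17:42748887-42876707 on the minus strand. Its covered bases were 1377 and 1194 bp in WT total cells, 1940 and 1388 bp in 5XFAD total cells, 1866 and 3128 bp in WT microglia, and 3506 and 4195 bp in 5XFAD microglia. The ranges overlapped, because total cells 5XFAD 1 lay above microglia WT 1 (means 3174 ± 977 and 1474.75 ± 323 bp; SD, n = 4 each; exact permutation p = 0.0571, adjusted 0.147).

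Cd2ap peaks were split along the gene. The region nearest the 5' end, chr17:42873235-42874873, had a peak in every microglia library, at percentiles of 79.6 to 88.5, and in total cells 5XFAD 2 alone of the total cell libraries, at a percentile of 12.5. Its midpoint was 2654 bp inside the gene. At chr17:42857012-42858277, an intragenic region, there was a peak in all 4 microglia and no total cell library. In the 3' part of the gene, chr17:42797314-42798177 had a peak in all 4 total cell libraries and in 1 microglia library, and chr17:42802686-42803323 in 3 total cell libraries and 0 microglia libraries. Of the 12 merged regions of Cd2ap, 7 were found in total cells alone, 2 in microglia alone and 3 in both. The shares of all merged regions were 33.3%, 31.3% and 35.4%.

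Sorl1 encodes a sorting receptor that binds the amyloid precursor protein and returns it from endosomes with the retromer complex. The gene (ID 20660) lies at chr9:41964709-42124297 on the minus strand and was almost bare. Peaks covered 359, 386, 1360 and 203 bp in total cells WT 1, WT 2, 5XFAD 1 and 5XFAD 2, and 293, 0, 0 and 462 bp in microglia WT 1, WT 2, 5XFAD 1 and 5XFAD 2. The ranges overlapped (microglia mean 188.75 ± 229 bp, total cell mean 577 ± 528 bp; SD, n = 4 each; exact permutation p = 0.229, adjusted 0.382). Of its 8 merged regions, 6 were found in 1 library only, beside 37.9% of all merged regions. No Sorl1 peak ranked above a percentile of 38.5 in its list. The peak over the printed Sorl1 sequence was that of total cells 5XFAD 2, 203 bp wide at a percentile of 9.54, and total cells 5XFAD 1 had a peak just inside the start, at a percentile of 0.821.

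Rin3 encodes an exchange factor that activates RAB5 on early endosomes. The gene (ID 217835) lies at chr12:102282840-102390854 on the plus strand, and it had the most covered bases of the 10 genes in microglia. The values were 838 and 395 bp in WT total cells, 4815 and 1169 bp in 5XFAD total cells, 9468 and 12712 bp in WT microglia, and 11782 and 17893 bp in 5XFAD microglia. Even the high total cell library, 5XFAD 1, stayed below every microglia library. The means were 12964 ± 3558 and 1804 ± 2032 bp (SD, n = 4 each; exact permutation p = 0.0286, adjusted 0.0935), a ratio of 7.19.

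The Rin3 peaks formed 22 merged regions, of which 13 were found in both preparations, 8 in microglia alone and 1 in total cells alone. The shares of all merged regions were 35.4%, 31.3% and 33.3%. The intragenic region chr12:102301642-102303342, centred 19652 bp inside the 5' end, was 1 of only 2 regions over the 10 genes with a peak in all 8 libraries. Its percentile was 94.7 to 97.8 in the microglia lists, and 65.5, 41.5, 89.3 and 46.6 in total cells WT 1, WT 2, 5XFAD 1 and 5XFAD 2. By number of peaks over Rin3 the preparations overlapped, with 13, 16, 14 and 18 in microglia WT 1, WT 2, 5XFAD 1 and 5XFAD 2. Total cells 5XFAD 1 had 14 peaks there, and the other total cell libraries had 2, 2 and 4. That library was also the one with most microglia marker coverage among total cells, and the part of this in the Rin3 values was not tested. Around the 5' end, microglia peaks ran from -447 to -161, -477 to -134, -477 to 25 and -486 to 63 bp in WT 1, WT 2, 5XFAD 1 and 5XFAD 2, and in total cells 5XFAD 1 alone had a peak, from -162 to 33 bp. At the 3' end, chr12:102389347-102390667 had a peak in 4 microglia libraries, at a mean percentile of 82.7, and in total cells 5XFAD 1. The outermost region, found in microglia WT 2 alone, also lay in the window of Lgmn, which encodes a lysosomal protease.

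**Figure D2:**
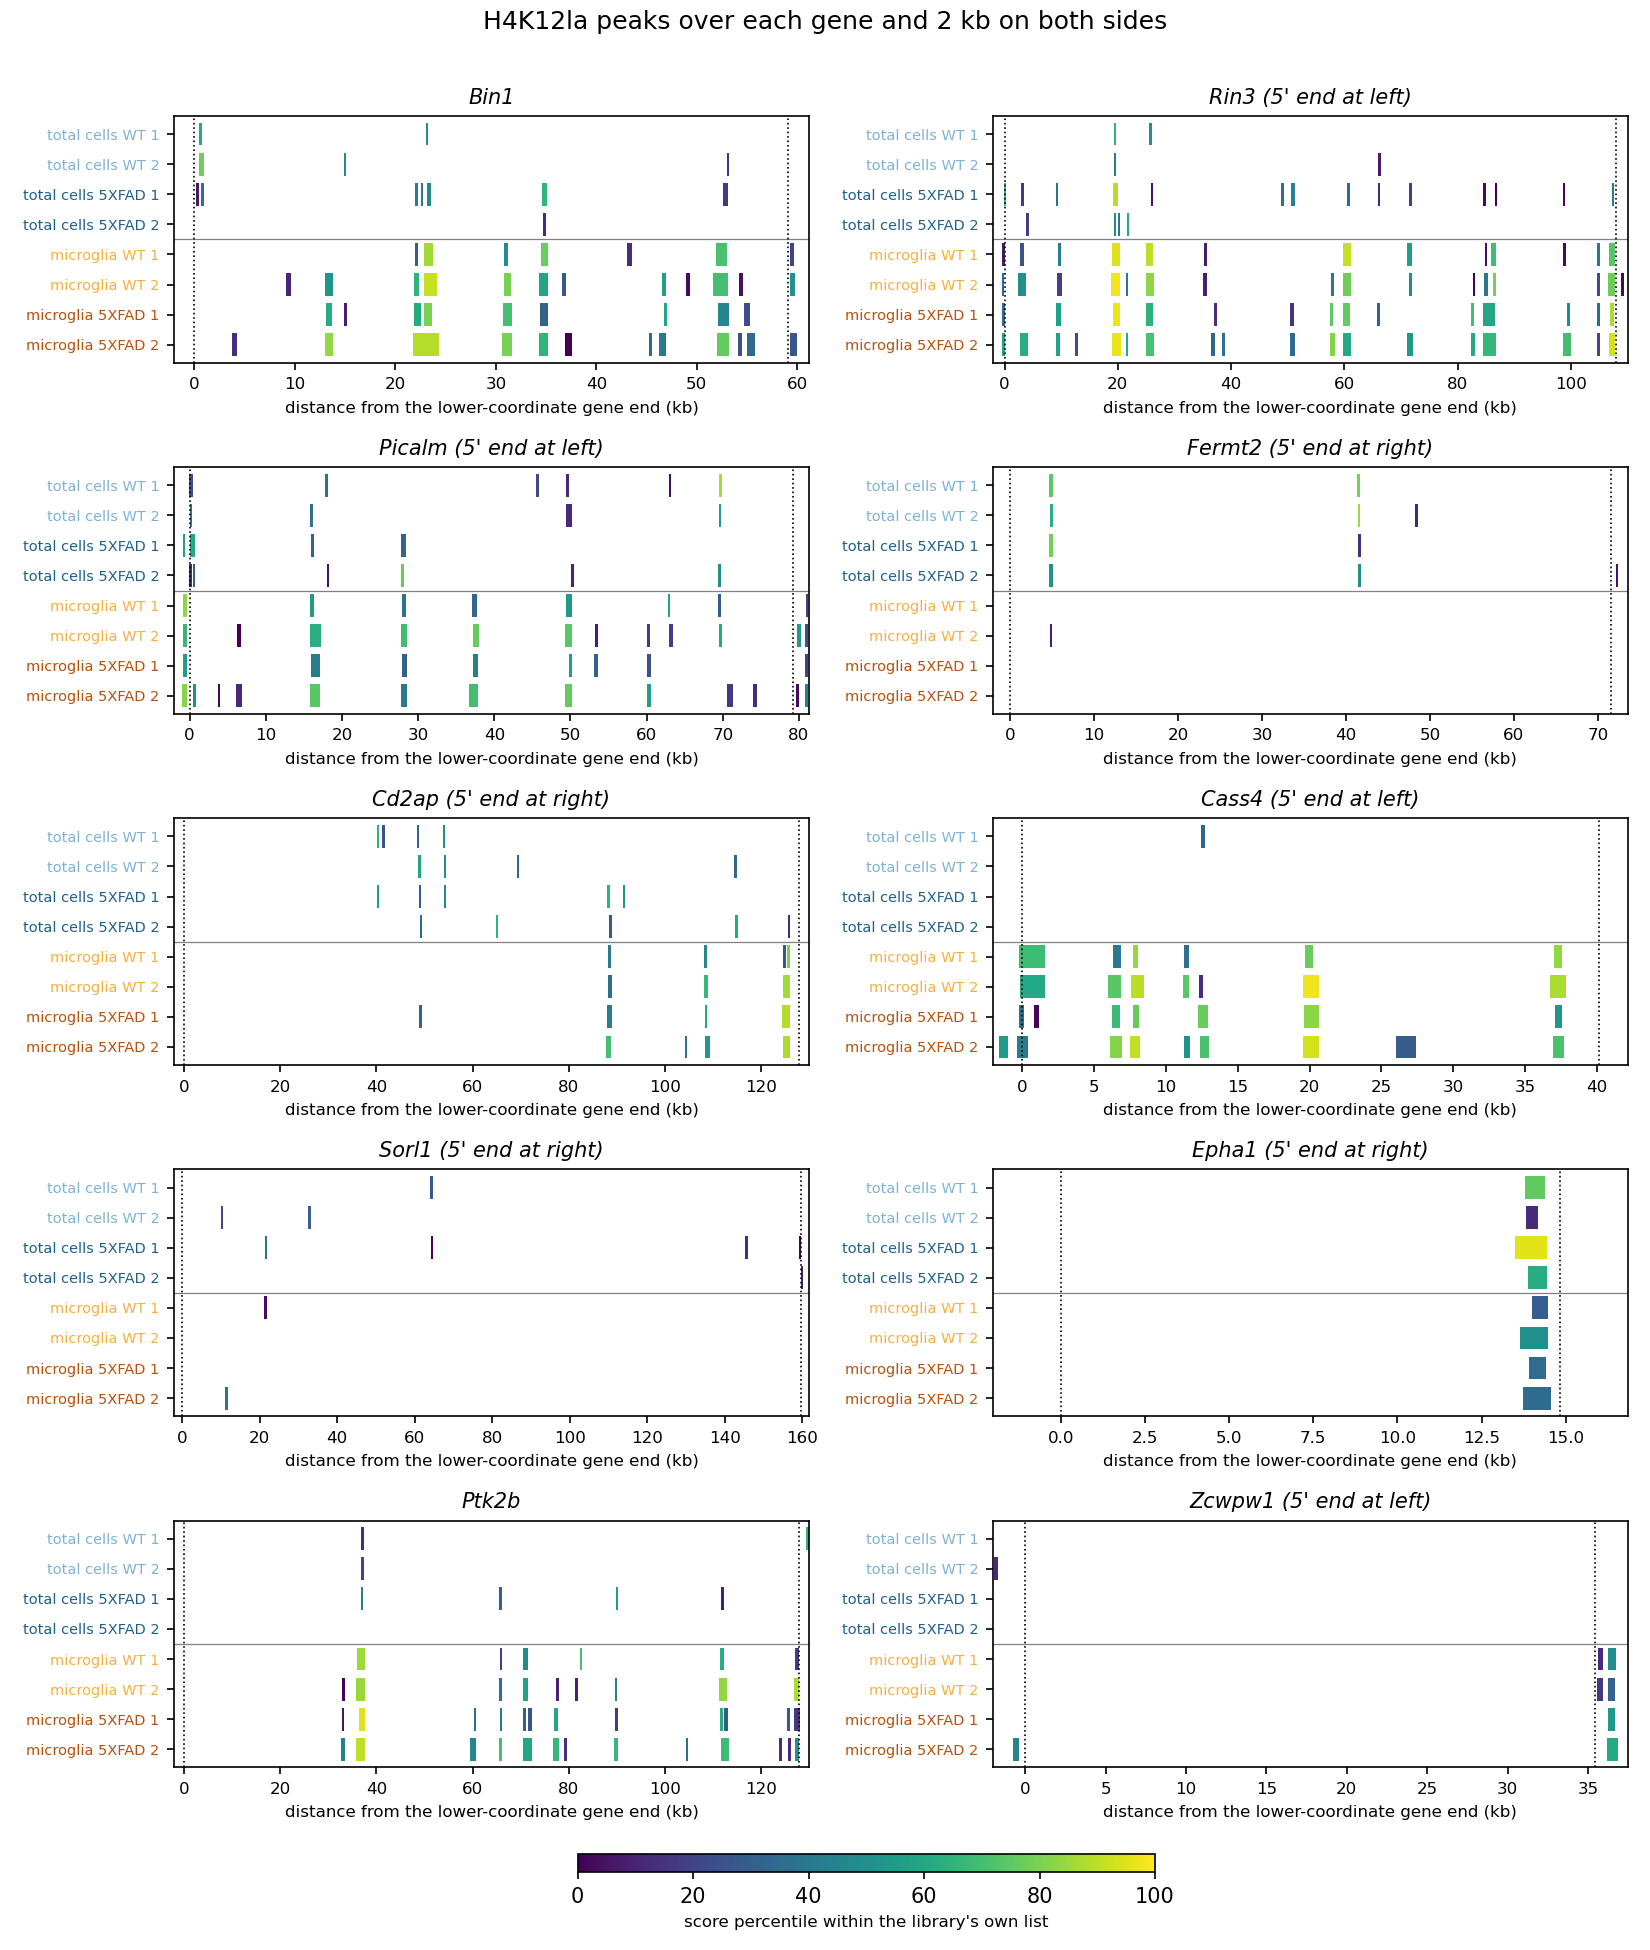
Position of every H4K12la peak over each gene and 2 kb on both sides, with the distance from the lower-coordinate gene end in kb on the horizontal axis and 1 row for each library. Dotted lines mark the annotated ends, colour gives the score percentile within the library's own list, and peaks too narrow for the scale are drawn at a fixed minimum width. Rin3, Bin1, Ptk2b and Cass4 carry many peaks in the microglia rows, Fermt2 carries peaks mainly in the total cell rows, and Epha1 has 1 peak in every row.

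Among the adhesion genes, Ptk2b encodes PYK2, a calcium-responsive kinase of the focal adhesion kinase family that is abundant in neurons and in myeloid cells. The gene (ID 19229) lies at chr14:66153257-66281100. Covered bases were 482 and 232 bp in WT total cells, 1261 and 0 bp in 5XFAD total cells, 5100 and 7540 bp in WT microglia, and 8173 and 12507 bp in 5XFAD microglia. Every microglia value lay above every total cell value, with means of 8330 ± 3084 and 493.75 ± 548 bp (SD, n = 4 each; exact permutation p = 0.0286, adjusted 0.0935) and a ratio of 16.9. The strongest region by rank, chr14:66189051-66190921, had percentiles of 84.7 to 95.1 in the microglia lists, and of 12.5, 21.1 and 41.5 in total cells WT 1, WT 2 and 5XFAD 1. At the higher-coordinate end, chr14:66279982-66281252 had a peak in 4 microglia and 0 total cell libraries, and its percentile ranged from 16.03 to 87.1. The gene Chrna2 shares part of the Ptk2b window, but no merged region of Ptk2b lay in the window of another protein-coding gene.

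Cass4 encodes a scaffold of the CAS family that assembles kinases at focal adhesions. The gene (ID 320664) lies at chr2:172393644-172433752 on the plus strand. Its peaks covered 315 bp in total cells WT 1 and 0 bp in the other 3 total cell libraries, against 4038 and 6469 bp in WT microglia and 3977 and 7245 bp in 5XFAD microglia. The means were 5432 ± 1676 and 78.75 ± 157.5 bp (SD, n = 4 each; exact permutation p = 0.0286, adjusted 0.0935). Per length of window, Cass4 had the highest mean in microglia of the 10 genes, 123 ± 38.0 bp per kb, above 95.0% of all protein-coding genes, and in total cells its mean of 1.79 bp per kb was above 43.5%.

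Over Cass4, 5 of 9 merged regions had a peak in every microglia and no total cell library, beside 4.51% of all 73355 merged regions. They included the intragenic regions chr2:172413194-172414329, at a mean microglia percentile of 87.5, and chr2:172401155-172402106, at 85.1. They also included chr2:172393298-172395215, which spans the start. There the microglia peaks ran from -206 to 1569 bp in WT 1, from -175 to 1571 bp in WT 2, from -230 to 116 bp in 5XFAD 1 and from -346 to 392 bp in 5XFAD 2, and each of these covered bases of the printed sequence. A second peak of 5XFAD 1 in the region, from 824 to 1208 bp at a percentile of 1.57, did not reach it. Gene-end peaks in every microglia and no total cell library were found for Cass4 alone of the 10 genes, beside 1.5% of all genes, and the reverse for 0 of them, beside 0.649%. The single total cell peak, in WT 1, was intragenic, at a percentile of 33.0.

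Fermt2 encodes kindlin-2, which activates integrins and is widespread in non-blood cells. The gene (ID 218952) lies at chr14:45458792-45530310 on the minus strand. Its peaks covered 693, 997, 643 and 836 bp in total cells WT 1, WT 2, 5XFAD 1 and 5XFAD 2. In microglia it was covered by 310 bp in WT 2 and by 0 bp in the other 3 libraries. The groups did not overlap (microglia mean 77.5 ± 155 bp, total cell mean 792 ± 159 bp; SD, n = 4 each; exact permutation p = 0.0286, adjusted 0.0935). Fermt2 had the 1 region over these genes with a peak in every total cell and no microglia library, chr14:45500120-45500440, 30031 bp inside the 5' end, beside 1.34% of all merged regions. Its percentiles there were 80.0, 85.2, 14.1 and 49.4 in total cells WT 1, WT 2, 5XFAD 1 and 5XFAD 2. A second region, chr14:45463432-45463871, had a peak in all 4 total cell libraries, at percentiles of 50.7 to 78.7, and in microglia WT 2 at a percentile of 8.31.

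Epha1 encodes a receptor tyrosine kinase for ephrins, which signal at cell contacts. The gene (ID 13835) lies at chr6:42358487-42373314 on the minus strand and had exactly 1 peak in each of the 8 libraries, all in the region chr6:42371961-42373050, whose midpoint is 809 bp inside the 5' end. Peaks covered 571, 377, 975 and 592 bp in total cells WT 1, WT 2, 5XFAD 1 and 5XFAD 2, and 474, 840, 497 and 827 bp in microglia WT 1, WT 2, 5XFAD 1 and 5XFAD 2. The values overlapped throughout (microglia mean 659.5 ± 201 bp, total cell mean 628.75 ± 250 bp; SD, n = 4 each; exact permutation p = 0.886, adjusted 1). Scores ranked at percentiles of 75.5, 11.8, 95.5 and 62.2 in total cells WT 1, WT 2, 5XFAD 1 and 5XFAD 2, and between 29.2 and 49.6 in microglia.

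Zcwpw1 encodes a reader of methylated histone H3 known for its role in meiosis, so it belongs to the loci but not to the pathways. The gene (ID 381678) lies at chr5:137787157-137822621 on the plus strand. Covered bases were 813, 868, 419 and 1055 bp in microglia WT 1, WT 2, 5XFAD 1 and 5XFAD 2, and 215 bp in total cells WT 2 with 0 bp in the other 3 total cell libraries. The groups did not overlap (means 788.75 ± 267 and 53.75 ± 107.5 bp; SD, n = 4 each; exact permutation p = 0.0286, adjusted 0.0935). None of these bases can be given to Zcwpw1 alone, because all 4 of its merged regions lay in the window of a neighbour, the 5' ones in that of Mepce and the 3' ones in that of Pilra, which encodes an inhibitory receptor of myeloid cells. The region in all 4 microglia libraries, chr5:137823323-137824004, lay beyond the 3' end of Zcwpw1, and no peak lay inside the gene away from its ends. The order of Zcwpw1 was lost with the gene span alone, with peaks shared with neighbours left out, with equal list lengths and per Mb covered by the list, which leaves 5 of the 6 genes (Bin1, Picalm, Rin3, Ptk2b and Cass4) with it under each of these.

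Per length of window, the microglia means ran from Cass4 (123 ± 38.0 bp per kb) through Bin1 (117 ± 43.9), Rin3 (116 ± 31.8), Picalm (79.2 ± 28.3), Ptk2b (63.2 ± 23.4), Epha1 (35.0 ± 10.7), Cd2ap (24.1 ± 7.41) and Zcwpw1 (19.99 ± 6.78) to Sorl1 (1.15) and Fermt2 (1.03). The ranges of mean ± SD of neighbours in that order overlapped, except those of Zcwpw1 and Sorl1. In total cells the order was another one, with Epha1 highest at 33.4 bp per kb, followed by Picalm at 20.4, Bin1 at 16.7, Rin3 at 16.1, Cd2ap at 11.2 and Fermt2 at 10.5, and the ranges of mean ± SD of neighbours among these 6 overlapped. Rin3 in microglia lay above 94.1% of all protein-coding genes on this scale and Bin1 above 94.3%, and Epha1 in total cells lay above 89.6%. As a description over 8 libraries that differ in list length and peak width, which all genes of a library share, the covered bases of Bin1 correlated with those of Picalm at Pearson's r = 0.98, with Rin3 at 0.98, with Epha1 at 0.44 and with Fermt2 at -0.81.

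Gene-end windows made up 80 kb of the 863.6 kb examined (9.26%), and gene-end peaks made up 19.6% to 20.8% of the peaks over these genes in microglia and 19.05% to 23.8% in total cells. Most peaks were therefore intragenic, although gene ends were the denser part. Microglia had 12.5 to 18.75 gene-end peaks per 100 kb and 4.85 to 7.40 intragenic ones, and total cells had 5 to 10 and 2.04 to 4.21. A gene-end peak was present in all 4 microglia libraries for 6 of the 10 genes (29.4% of all genes), namely Picalm, Rin3, Ptk2b, Cass4, Epha1 and Zcwpw1. It was present in all 4 total cell libraries for 2 (22.8% of all genes), Picalm and Epha1. The peaks over the 10 genes were 530 to 776 bp wide in the median in the microglia libraries and 232 to 350 bp in the total cell libraries, which is the same order as over the whole lists.

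**Figure D3:**
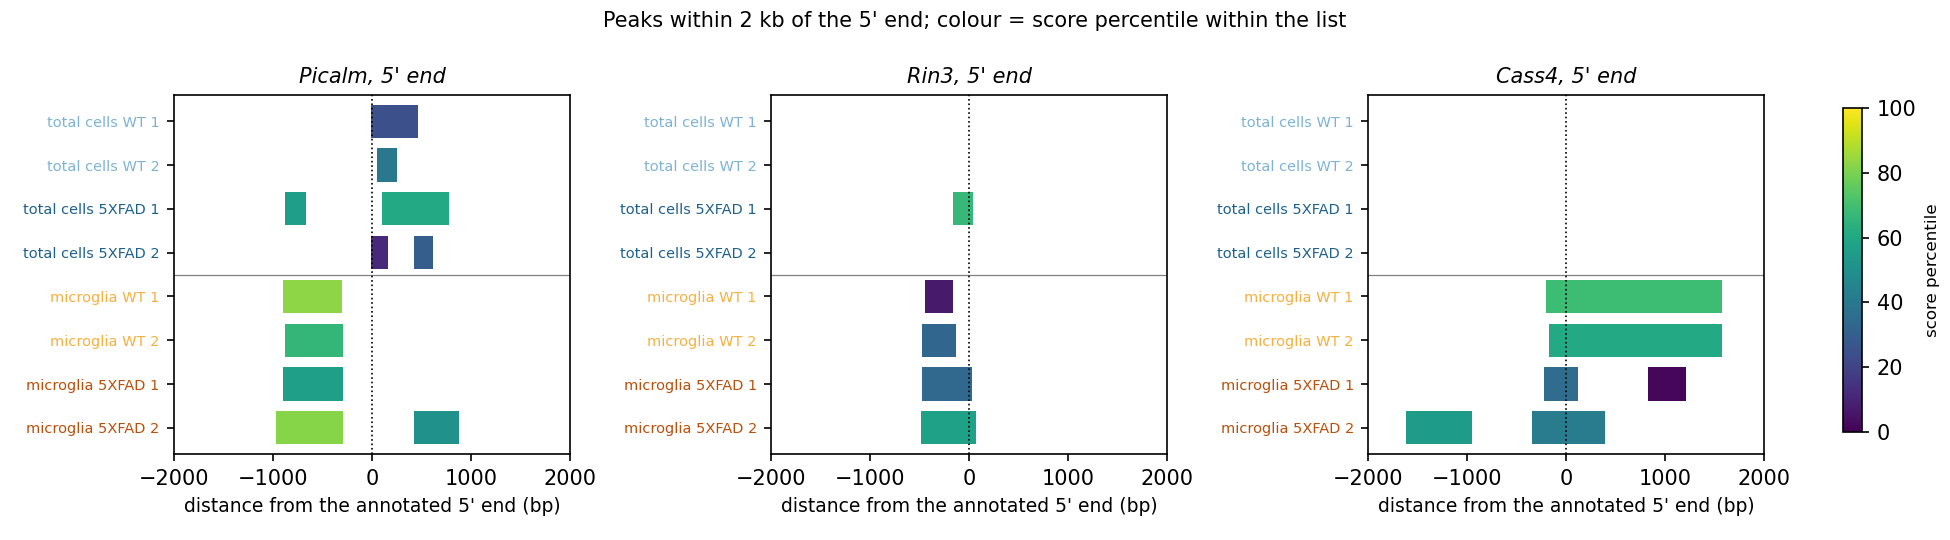
Peaks around the outer 5' end of Picalm, Rin3 and Cass4, with the distance from that end in bp on the horizontal axis, downstream positive, and 1 row for each library; colour gives the score percentile within the list. In Picalm every microglia row has a peak upstream of the end, microglia 5XFAD 2 has a second one inside the gene, and most total cell peaks lie at the end or just inside, and in Cass4 peaks appear in the microglia rows alone.

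Merging the 8 lists gave 112 regions over the 10 genes, 24 at gene ends and 88 intragenic. Of these, 54 (48.2%, beside 31.3% of all 73355 regions) were found in microglia alone, 23 (20.5%, beside 33.3%) in total cells alone and 35 (31.2%, beside 35.4%) in both. The 73355 regions include those that lie outside genes, so these shares are not matched for place. A peak in 1 library only was found for 37 (33%, beside 37.9%). A peak was present in every microglia library for 33 regions (29.5%, beside 22.8%) and in every total cell library for 6 (5.36%, beside 11.5%). The pattern of every microglia and no total cell library held for 13 regions (11.6%, beside 4.51%). Of these, 5 lay over Cass4, 2 each over Picalm and Ptk2b, and 1 each over Bin1, Cd2ap, Rin3 and Zcwpw1. The pattern of all 8 libraries held for 2 regions, beside 7.19% of all merged regions. No gene had a window with a peak in every microglia library and none in total cells (1.2% of all genes) or the reverse (0.982%). A peak in all 8 libraries was found for 5 of the 10 genes, beside 26.7% of all genes, in all 4 microglia libraries for 8 (39%) and in all 4 total cell libraries for 7 (33%). By number of peaks rather than covered bases, 3 genes (Picalm, Ptk2b and Cass4) were higher in every microglia library (4.3% of all genes) and 1, Fermt2, in every total cell library (2.26%).

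**Figure D4:**
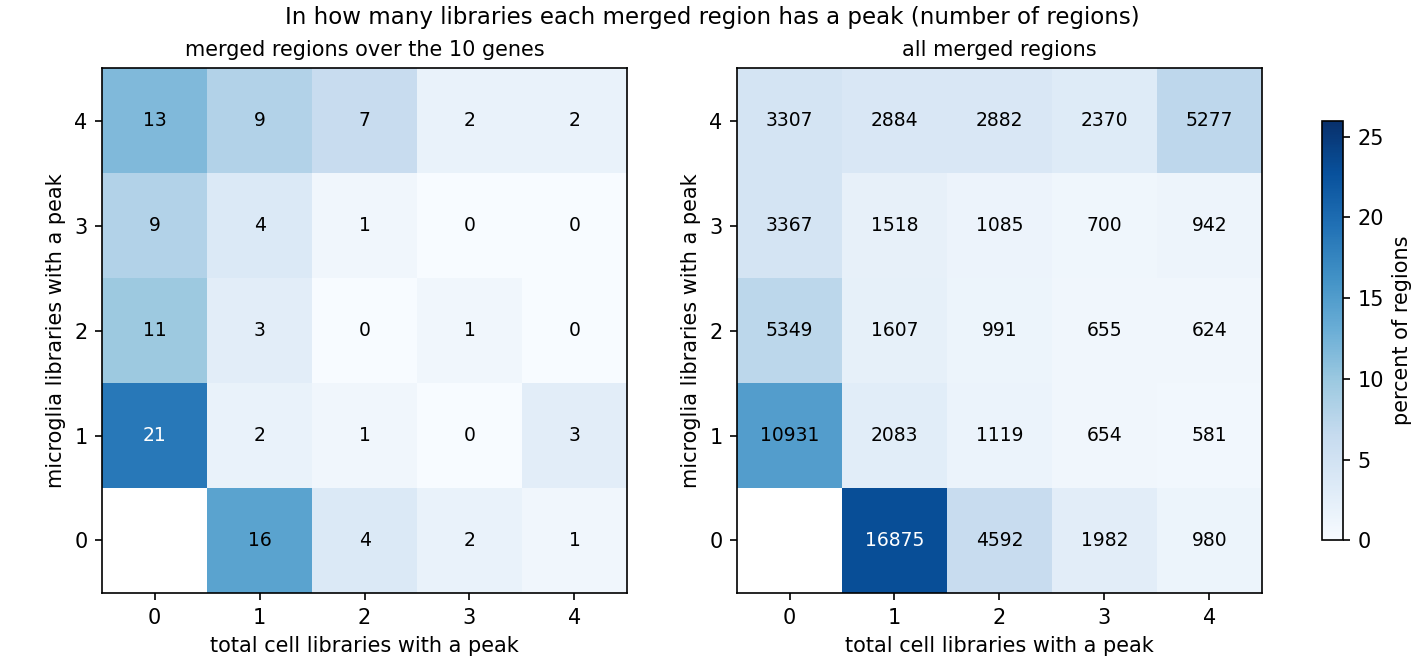
Number of merged regions by how many of the 4 total cell libraries (horizontal axis) and 4 microglia libraries (vertical axis) have a peak there, for the 10 genes on the left and for all 73355 regions on the right; shading is the percentage of regions in each panel. Over the 10 genes, 13 regions fall in the cell for every microglia and no total cell library, 1 in the opposite cell and 2 in the cell for all 8.

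Genotype was compared within each preparation, with 2 libraries against 2, where an exact permutation test cannot give a p below 0.333. In microglia, Cd2ap and Ptk2b had more covered bases in both 5XFAD libraries than in both WT libraries, 2 of 10 genes beside 19.1% of all genes, and 0 genes had the reverse order (1.78%). In total cells, Cd2ap, Rin3 and Epha1 had more in both 5XFAD libraries, 3 of 10 beside 16.6%, and 0 had the reverse (5.64%). For 0 of the 10 genes was a peak present in both 5XFAD and neither WT library, in microglia (2.81%) or in total cells (2.86%). The microglia share was near that of all genes. The mean difference, 5XFAD minus WT, was 4020 bp for Ptk2b and 1353.5 bp for Cd2ap in microglia, and in total cells 2375.5 bp for Rin3, 378.5 bp for Cd2ap and 309.5 bp for Epha1. Coverage of the microglia markers had the same order in total cells, 1368 and 2900 bp in WT and 6664 and 3545 bp in 5XFAD (142 and 373 against 452 and 412 bp per Mb covered), and its part in these differences was not tested. The lists differed in the same direction, since all peaks together covered 15.3 and 26.1 Mb in WT microglia and 22.1 and 36.3 Mb in 5XFAD microglia. Per Mb covered by the whole list, Ptk2b had 333 and 289 bp in WT and 370 and 345 bp in 5XFAD microglia, which kept the order. Cd2ap had 122 and 120 bp per Mb in WT and 159 and 116 bp per Mb in 5XFAD microglia, which overlapped. In total cells, Cd2ap overlapped on this scale too, with 143 and 153 bp per Mb in WT and 131 and 161 bp per Mb in 5XFAD, while Rin3 and Epha1 kept the order. With peaks of a score of at least 50, Cd2ap and Rin3 lost the order in total cells, Epha1 kept it and Picalm gained it.

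The paralogs Fermt3 and Ptk2 had the opposite order to Fermt2 and Ptk2b. Of 27 paralogs, 7 had more covered bases in every microglia library and 1, Ptk2, in every total cell library; their median difference was 0 bp. The shares of all genes were 18.5% and 1.64%, and these also stand beside the counts of the lists that follow. Bin2, the leukocyte relative of Bin1, had 0, 0, 1025 and 0 bp in total cells WT 1, WT 2, 5XFAD 1 and 5XFAD 2, and 3271, 5221, 3437 and 7391 bp in microglia in the same order. Fermt3, which encodes the kindlin of blood cells, had 687, 622, 855 and 1152 bp in total cells and 2839, 3645, 2985 and 4715 bp in microglia in that order, opposite to Fermt2. Ptk2, which encodes focal adhesion kinase, had 2092, 733, 591 and 866 bp in total cells and 562, 567, 579 and 570 bp in microglia, opposite to Ptk2b.

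Of the paralogs, Epha2 alone had a peak in every microglia and no total cell library. It had 569, 1678, 791 and 1745 bp in microglia WT 1, WT 2, 5XFAD 1 and 5XFAD 2, whereas the values of Epha1 overlapped between the preparations. Bcar1, which encodes the founding CAS scaffold, had 965, 1086, 1407 and 359 bp in total cells and 0, 786, 0 and 0 bp in microglia, with overlapping ranges. Sort1, a sorting receptor of the Sorl1 family, had 1693 to 4416 bp in total cells and 6181 to 13185 bp in microglia. The ranges of its relatives Sorcs1, Sorcs2 and Sorcs3 overlapped, as did those of Amph and Bin3, further relatives of Bin1. Bin3 had 326 to 2272 bp in total cells and 395 to 3362 bp in microglia.

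The partners of these genes in the same pathways were taken from 3 lists. Of 27 genes of clathrin endocytosis, 6 had more covered bases in every microglia library (Cltc, Ap2b1, Epn1, Epn3, Synj1 and Stam) and 2 in every total cell library (Ap2a1 and Fcho1), with a median difference of 614.25 bp. The first count was near the share of all genes, 18.5%. Fcho1, which starts clathrin pits, had a peak in every total cell library and in 0 microglia libraries, with 234, 266, 205 and 242 bp covered in total cells WT 1, WT 2, 5XFAD 1 and 5XFAD 2. Clta, the clathrin light chain A gene, and Hip1r, which links clathrin to actin, had a gene-end peak in every microglia and no total cell library. Of 15 endosomal partners of SORL1 and RIN3, 4 had more in every microglia library (Gga1, Rab5a, Rabgef1 and Rabep1) and 0 in every total cell library, with a median difference of 602.25 bp, again beside 18.5% and 1.64% of all genes. Rab5a, which encodes the substrate of RIN3, had 245 to 850 bp in total cells and 1140 to 2895 bp in microglia.

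Of 23 genes of integrin adhesion, 10 had more covered bases in every microglia library (Itgb2, Itgb3, Itgb5, Itga5, Tln2, Parvb, Parvg, Lims1, Src and Crkl) and 0 in every total cell library, with a median difference of 1955.25 bp, beside the same 18.5% and 1.64%. Itgb2, the integrin beta chain of leukocytes, had 187, 475, 1380 and 1173 bp in total cells WT 1, WT 2, 5XFAD 1 and 5XFAD 2, and 5397, 7312, 6065 and 8603 bp in microglia in that order. Parva, a partner of kindlin-bound integrins, had a gene-end peak in every total cell and no microglia library.

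Genes whose covered bases ran most like those of each risk gene were sought among 11474 genes with peaks in at least 4 libraries, by Pearson's r over the 8 libraries. These libraries differ in list length and peak width, which all genes share, so the values are a description only. Rin3 ran closest to Sall1, a transcription factor gene of microglia, at r = 0.999, and then to Atg7 at 0.999. Sall1 had 1302, 1386, 2461 and 1530 bp covered in total cells WT 1, WT 2, 5XFAD 1 and 5XFAD 2 and 4092, 5148, 4621 and 6601 bp in microglia in that order. Cass4 ran closest to Arl11 (r = 0.999) and Lcp1 (0.998), which encodes the actin bundling protein of leukocytes. Bin1 ran closest to Trak1 (0.998) and Gm38457, Picalm to Nat9 and Tsga10ip, Cd2ap to Pde4dip and Klhl3, and Ptk2b to Mtss1 and Cadm1, all with r of 0.997 or 0.998. Fermt2 ran closest to Zfp366 (0.992) and Zfhx4 (0.983), which like it had 0 bp in 3 of the 4 microglia libraries. Zcwpw1 ran closest to Uspl1 (0.988) and Clec11a (0.988), Epha1 to Bpgm (0.975) and Mia2 (0.961), and Sorl1 to Wls (0.959) and Glud1 (0.957).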

How the data were processed

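H4K12la CUT&Tag peak lists of 8 mouse brain libraries were used, 2 for each of 4 groups, grouped by the sample titles. The submitters' processing notes name the build GRCm38 (mm10) and the tools Bowtie2, deepTools and fastp 0.19.6; how peaks were called is not given in the sources used here. Each library has 1 deposited list, with no header, that gives the position and a whole-number score of each peak. The unit of the deposited score is not stated; the lowest was 20 in every list, and the score served only as a percentile within its list, 100 being the highest. Starts were read as counted from 0 and are printed counted from 1. Without read counts the depth is unknown, and intervals were not computed. List length differed, and longer lists mark more genes. No 2 lists shared more than 193 exact intervals, so none was treated as a copy.

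Gene spans came from RefSeq (GRCm38.p6, chromosomes 1 to 19, X and Y); strand came from the promoter table where it lists the gene. Covered bases were the bases of a window under the peaks of a library, and merged regions joined peaks of the 8 lists that overlapped by 1 base. Microglia and total cells were compared with an exact two-sided permutation test over the 70 assignments of 8 libraries, adjusted by Benjamini-Hochberg over 14445 genes with a peak. Counts of genes were read beside the share of all 21887 genes. The overlap and permutation code, in Python 3.11.15 with numpy 2.4.6, was tested on simulated data. The 10 genes and all gene lists were chosen with earlier results of these data known. Genes named were the 10 genes, list genes found in every library of one preparation and none of the other, the paralogs, the 2 most like genes of each, and regions with the highest mean percentiles; other list genes and regions were chosen after their values were seen. Alternatives were peaks with a score of at least 50, equal list lengths, other windows and overlaps, scaling by the Mb covered, leaving out each library, a replicate block and, added after seeing the data, the number of peaks. Exon and intron annotation was not used here.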

Additional observations from a re-analysis of the deposited data

Results flagged for a closer look

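In 4 of 20 groups of 4 libraries, the covered bases of a gene in 1 library lay far from the other 3 by Dixon's criterion. For normally distributed values, chance alone meets it in about 1 in 20 groups. Over Sorl1, total cells 5XFAD 1 had 1360 bp covered and the other total cell libraries 203 to 386 bp. Over Fermt2, microglia WT 2 had 310 bp and the other microglia libraries 0 bp. Over Cass4, total cells WT 1 had 315 bp and the other total cell libraries 0 bp. Over Zcwpw1, total cells WT 2 had 215 bp and the other total cell libraries 0 bp. The last 3 are single peaks in groups otherwise at 0. Such a group always meets the criterion, so the 4 of 20 cannot be set against 1 in 20.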

How the results depend on the processing

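With peaks of a score of at least 50, 2 genes (Cass4 and Zcwpw1) had a peak in every microglia and no total cell library. The share of all genes at that setting was 2.32%, against 1.2% as reported. A score of 50 stood at a percentile of 49.4 in total cells WT 2 and 22.8 in microglia 5XFAD 1. The cut-off thus removes unlike parts of the lists, and moves under it may stem from that. In the same setting 1 gene (Fermt2) had the reverse, and the count with gene-end peaks in all 4 total cell libraries was 0. With lists shortened to equal length, 1 gene (Fermt2) had a peak in every total cell and no microglia library. Per Mb covered, 3 genes (Sorl1, Fermt2 and Epha1) were higher in every total cell library, and 1 (Ptk2b) was higher in both 5XFAD than both WT microglia libraries. Zcwpw1 left the 6 genes higher in every microglia library per Mb covered (5 genes, beside 6.94% of all genes), with the gene span alone (5), with shared peaks left out (5) and with equal lists, where Cd2ap joined (6). By number of peaks, added after seeing the data, 3 genes (Picalm, Ptk2b and Cass4) were higher in every microglia library and 1 (Ptk2b) in both 5XFAD microglia libraries. Leaving out each library in turn gave 0 to 1 microglia-only windows (1.22% to 2.33% of all genes) and 0 to 1 total-cell-only windows. It gave 6 to 7 genes higher in every microglia library. For 5XFAD microglia, 2 to 8 genes were higher (8 without microglia 5XFAD 1, 6 without microglia WT 2). For 5XFAD total cells, 3 to 6 were higher (6 without total cells 5XFAD 2). Fewer libraries make these rules easier to meet. Counts printed here without a share of all genes are not read as results about these genes.

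The difference between microglia and total cells turned negative for Cd2ap per Mb covered (-18.4 bp per Mb) and by number of peaks (-0.75 peaks), and for Epha1 with equal lists (-176 bp) and per Mb covered (-33.6 bp per Mb; exact permutation p = 0.0286, adjusted 0.114). It turned positive for Sorl1 with a score of at least 50 (115.5 bp). Leaving out 1 library each, the Epha1 difference ranged from -53.2 to 146 bp; it was -53.2 bp without total cells WT 2, -29.4 bp without microglia WT 2 and -25.1 bp without microglia 5XFAD 2. The cause of these moves was not tested. The other alternatives kept the direction of all 10 genes in 172 recomputed values and 98 recomputed counts within 1.5 times. The labels do not say whether replicate numbers pair the libraries. Correlations of deviations ran from -0.58 (total cells 5XFAD with microglia 5XFAD) to 0.79 (microglia WT with microglia 5XFAD). In both microglia groups replicate 2 had the longer list, with 22300 and 33500 peaks in WT and 29947 and 41783 in 5XFAD. Whether the 2 microglia groups share a batch by replicate number was not tested. With replicate numbers as a block there are 16 arrangements, the smallest p is 0.125, and 0 genes were called. The Bin1 difference stays 6308.75 bp.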
